A study of Mus musculus with 4 samples.

Results

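Cerebellins, the delta glutamate receptor *Grid1* and the neurexins *Nrxn2* and *Nrxn3* were examined in granule-cell-enriched (GCE) tissue of the mouse cerebellum. The 7 genes (*Cbln1*, *Cbln2*, *Cbln3*, *Cbln4*, *Grid1*, *Nrxn2* and *Nrxn3*) were chosen by name, through their NCBI gene numbers, out of 24532 genes in each table. The tissue came from 2 wild-type (WT) mice and 2 heterozygous *Kdm3b* mice (*Kdm3b*+/-), with 1 library per mouse. All were adult males more than 7 weeks old, and the WT mice of the study were littermates of its mutants. The *Kdm3b*+/- mice carried the gene-trap vector pGT0lxf in 1 allele in every tissue, were derived from a single embryonic stem cell line (YTC406), and had been bred to C57Bl/6N and then C57Bl/6J mice. GCE tissue was cut by hand from slices of the vermis, so its content of other cell types could differ between mice. In such bulk tissue fewer cells of a type and less RNA per cell cannot be told apart.

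Cerebellins are secreted glycoproteins of the C1q family. Granule cells release CBLN1 from their parallel fibers, where it binds neurexins on the presynaptic side and delta glutamate receptors on the dendrites of Purkinje cells, and this bridge is known to hold parallel fiber synapses together. CBLN3 is made by granule cells as well and depends on CBLN1 to be secreted, as the proteins assemble with each other. Neurexins bind cerebellins only when their transcripts keep the insert of splice segment 4, which tables of whole genes do not resolve.

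The depth was between 4.92 and 6.69 gigabases aligned per library. The trapped gene was examined first. *Kdm3b* reached a TPM (transcripts per 1000000, a level per transcript length) of 9.10 and 11.0 in WT mice, against 8.30 and 7.90 in the *Kdm3b*+/- mice (the mutants), and the groups did not overlap. Its log2 fold change was −0.27 with a standard error of 0.17 and an adjusted p of 0.424 (limma). It was −0.15 without WT mouse 2 and −0.13 after a correction for transcript length and GC content. By western blot, the study found significantly less KDM3B protein in the vermis of its *Kdm3b*+/- mice than in WT littermates. That was protein of the vermis, and the TPM here is RNA of GCE tissue. The vector lies within the gene, and the TPM of a whole gene does not separate the exons before it from those after it. Among the 13652 genes tested for a genotype difference (mean TPM of 1 or more), 0.461% were called, with a fold change over 1.2 at an adjusted p below 0.05, 17.0% had an unadjusted p under 0.05 and 51.3% had groups that did not overlap, 19.2% higher and 32.0% lower in *Kdm3b*+/- mice. Of the 12 markers of granule cells 12 were tested, none was called (limma; 1 had an unadjusted p under 0.05), and 1 had groups that did not overlap. The granule cell marker *Gabra6* had a TPM between 984 and 1200. The summed TPM of these markers was 4492 and 5392 in WT mice, against 4838 and 5316 in mutants. Markers of Purkinje cells were present as well, with a summed TPM of 5186 and 3346 in WT mice, against 3284 and 2782 in mutants. Most of this sum was *Aldoc*, which astrocytes express as well. The other 11 markers summed to 2039 and 878 in WT mice, against 1150 and 957 in mutants, so that WT mouse 1 was highest, WT mouse 2 lowest, and the groups overlapped. *Calb1*, for example, had a TPM of 422 in WT mouse 1 and between 136 and 191 in the other 3 libraries. Of the 12 markers all had a lower mean TPM in *Kdm3b*+/- mice, and 11 had a lower mean on the log2 scale. The groups did not overlap for 5 of them (41.7%), all lower, and none was called (limma; 4 had an unadjusted p under 0.05). Of the 7 markers of Bergmann glia and astrocytes 2 were called higher in *Kdm3b*+/- mice (*Aqp4* and *Fabp7*, log2 fold changes 1.10 and 1.49, limma adjusted p = 0.0330 and 0.0133), and 5 had groups that did not overlap, 2 higher and 3 lower. Of the 6 oligodendrocyte markers 1 was called, *Mobp*, which was lower (log2 fold change −0.93, limma adjusted p = 0.0133). Of the 7 markers of Golgi cells and molecular layer interneurons 5 were tested. The groups did not overlap for 4 of these (80%, against 51.3% of all tested genes), 1 higher and 3 lower. For the 4 unipolar brush cell markers this was so for 3 (75%), all lower. None on either list was called (limma; 3 and 1 had an unadjusted p under 0.05). Choroid plexus markers were almost absent, with *Ttr* listed at 0 in WT mouse 2 and *Folr1* at 0 in *Kdm3b*+/- mouse 1.

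The levels of the 7 genes covered 4 orders of magnitude. *Cbln3* had the highest mean TPM over the 4 libraries (955), followed by *Cbln1* (430), *Nrxn3* (93.6), *Nrxn2* (18.5), *Cbln4* (1.25), *Grid1* (0.647) and *Cbln2* (0.0840). Each gene lay above the next in all 4 libraries, and no neighbours in this order had overlapping ranges of TPM. The place of *Nrxn3* in it does not hold on another scale of the same tables, as described with that gene.

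**Figure D1:**
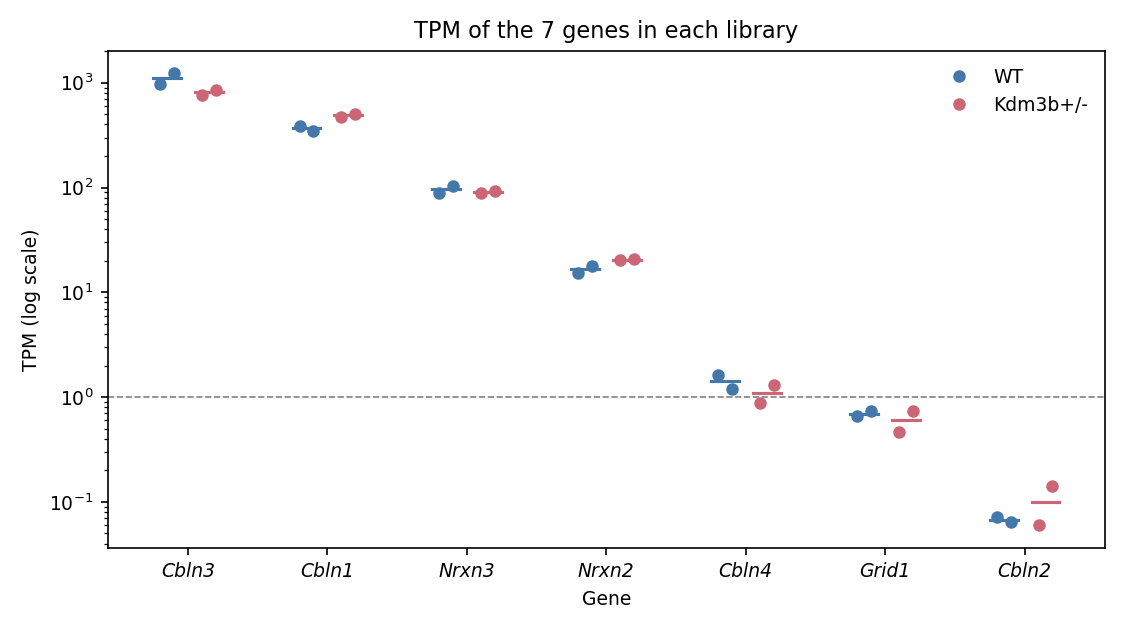
TPM on a log scale for the 7 genes, ordered by mean TPM, with a point per library (2 WT, 2 *Kdm3b*+/-) and a short line at each group mean. The dashed line is a TPM of 1, the minimum mean for testing; *Grid1* and *Cbln2* lie below it, and the groups are separated for *Cbln3*, *Cbln1* and *Nrxn2*.

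Genotypes were compared on log2(TPM + 1) with limma over the 13652 genes whose mean TPM was 1 or more. On this scale the changes of genes with low TPM are understated. Of the 7 genes 5 passed this minimum, and *Cbln2* and *Grid1* did not. A gene was called where its fold change exceeded 1.2 at an adjusted p below 0.05. None of the 5 was called, whereas 0.461% of all tested genes were, 0.117% higher and 0.344% lower in *Kdm3b*+/- mice. *Cbln1* and *Cbln3* had an unadjusted p under 0.05, 2 of the 5, 1 higher and 1 lower. Among all tested genes this share was 17.0%, 5.47% higher and 11.5% lower. The groups did not overlap for *Cbln1*, *Cbln3* and *Nrxn2*, 3 of the 5, 2 higher and 1 lower. This was so for 51.3% of all tested genes, 19.2% higher and 32.0% lower. An exact two-sided permutation test cannot go below p = 0.333 with 2 mice per group.

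*Cbln3* (NCBI gene 56410) lies on the reverse strand of chromosome 14 from 55878920 to 55884256, in the coordinates of the tables, and no other annotated gene overlaps it. It ranked between 77 and 158 by TPM among all genes of a library. The TPM was 971 and 1229 in WT mice, against 769 and 851 in mutants. Both *Kdm3b*+/- mice were below both WT mice, and the WT mice were further apart from each other than the *Kdm3b*+/- mice. The mean went from 1100 ± 183 to 810 ± 58.4 TPM (SD, n = 2 each), which is 0.736 of the WT level. The log2 fold change was −0.43 with a standard error of 0.14 (95% interval −0.75 to −0.12), and limma gave an unadjusted p of 0.0125 and an adjusted p of 0.196. Without WT mouse 2 the log2 fold change was −0.26, and with a correction for transcript length and GC content it was −0.28. That correction took the longest transcript in GENCODE, 4866 bases for *Cbln3*, while the shorter of its 2 transcripts is 1438 bases. Which of them is expressed was not tested.

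*Cbln1* (NCBI gene 12404), on the reverse strand of chromosome 8 from 87468853 to 87472592, differed in the opposite direction. WT mice had a TPM of 391 and 347, against 476 and 507 for *Kdm3b*+/- mice. Both *Kdm3b*+/- mice were above both WT mice, and the gap between the groups was larger than the gap within either. The mean went from 369 ± 30.8 to 491 ± 22.0 TPM (SD, n = 2 each), 1.33 times the WT level. The log2 fold change was 0.41 with a standard error of 0.12 (95% interval 0.13 to 0.69), and limma gave an unadjusted p of 0.00845 and an adjusted p of 0.178. The difference did not pass the adjusted threshold under any alternative that kept all 4 libraries, with limma adjusted p-values between 0.0631 and 0.481. The paper, which used DESeq2 on counts of the same libraries, did list *Cbln1* as differentially expressed, likewise higher in *Kdm3b*+/- mice.

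Since CBLN1 and CBLN3 assemble with each other, their relative levels were compared within each library, where scaling between libraries cancels. This ratio was chosen after the values had been seen. There were 2.49 and 3.54 transcripts of *Cbln3* for each transcript of *Cbln1* in WT mice, against 1.62 and 1.68 in mutants. *Cbln3* was in excess in all 4 libraries, and the ratio was lower in both *Kdm3b*+/- mice than in both WT mice. On the log2 scale the ratio was 1.57 ± 0.36 for WT mice and 0.72 ± 0.04 for mutants (SD, n = 2 per group), a difference of −0.85, or 1.80-fold. The two-sided exact permutation test gave p = 0.333, the smallest that 2 mice against 2 allow. As *Cbln3* was lower and *Cbln1* higher in both mutants than in both WT mice, the ratio had to be lower in both as well. This test therefore adds nothing to the values of the 2 genes. The difference ran from −1.10 to −0.59 when single libraries were left out, and −0.89 after correction for length and GC content.

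The summed TPM of the 4 cerebellins was 1363 and 1578 for WT mice, against 1246 and 1360 for mutants. *Cbln1* held 28.6% and 22.0% of this sum in WT mice, against 38.2% and 37.3% in mutants. *Cbln4* held between 0.0698% and 0.120% of it and *Cbln2* at most 0.0103%, so *Cbln3* made up nearly all of the rest. Set against the summed TPM of the 12 granule cell markers, *Cbln1* amounted to 8.70% and 6.44% in WT mice, against 9.83% and 9.54% in mutants. *Cbln3* amounted to 21.6% and 22.8% against 15.9% and 16.0%. Neither pair of groups overlapped on this scale, but neither did by TPM alone. By TPM this was so for 51.3% of all tested genes. The summed TPM of the markers is not a count of granule cells, so levels per granule cell were not tested. Markers of glia, and those of Golgi cells and interneurons, differed between the genotypes in both directions. Of the 4 unipolar brush cell markers 3 were lower in mutants without overlap, and WT mouse 1 had the highest sum of Purkinje cell markers. The part of these cells in the results was not tested.

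**Figure D2:**
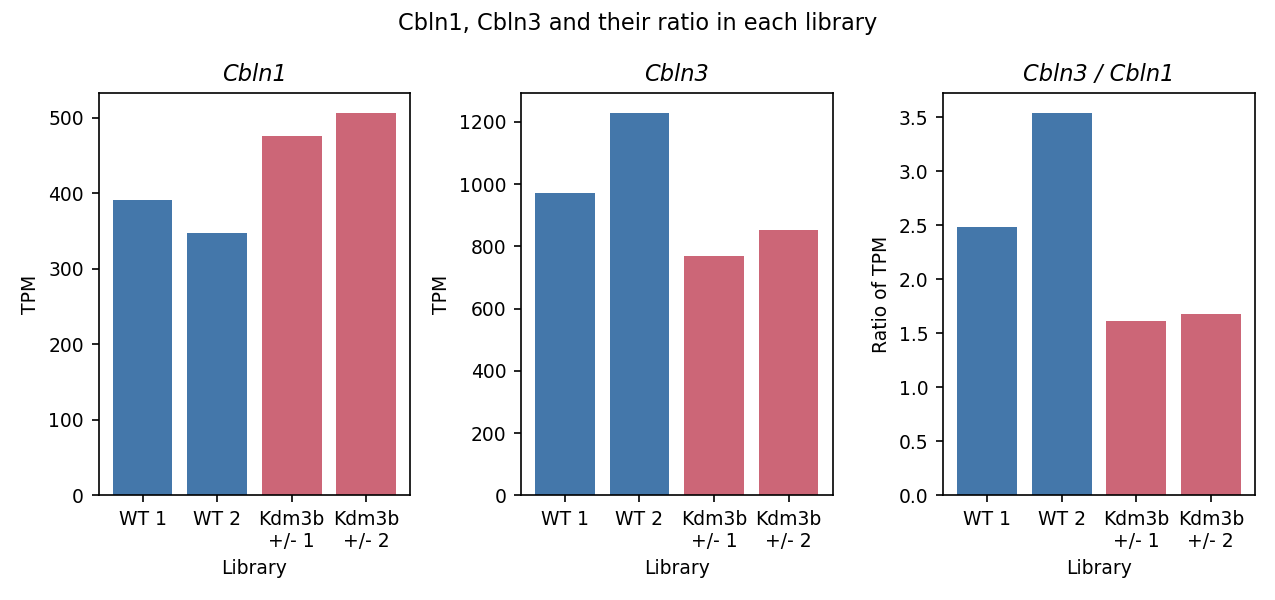
TPM of *Cbln1* and *Cbln3* and the ratio of *Cbln3* to *Cbln1* in each library (bars from 0, 2 WT and 2 *Kdm3b*+/- mice, no error bars since each bar is 1 library). *Cbln1* is higher and *Cbln3* lower in both *Kdm3b*+/- mice, and the ratio is 2.49 and 3.54 against 1.62 and 1.68.

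Among 8746 other genes whose mean TPM was 10 or more, those with the profile most like that of *Cbln1* over the 4 libraries were *Rps23*, *Snrpf* and *Rps13*, with a root-mean-square difference of centred log2(TPM + 1) values between 0.0246 and 0.0257. *Rps23* had a TPM of 156, 139, 193 and 196 in WT mice 1 and 2 and *Kdm3b*+/- mice 1 and 2. Those most like *Cbln3* were *Nup107*, *Srpr* and *Sidt2*, with differences between 0.00663 and 0.0110. *Srpr* had a TPM of 80.6, 101, 62.8 and 69.3 in the same order. Such profiles were common, since 394 genes lay within 0.1 of *Cbln1* and 885 within 0.1 of *Cbln3*.

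*Cbln4* encodes a cerebellin known for binding the receptors DCC and neogenin, and was barely expressed. It lies on the reverse strand of chromosome 2 from 172036336 to 172043466. The TPM was 1.64 and 1.19 in WT mice, against 0.870 and 1.31 in mutants, and the groups overlapped. The log2 fold change was −0.21 with a standard error of 0.21 and a 95% interval of −0.69 to 0.27 (limma, adjusted p = 0.641). With single libraries left out it ran from −0.36 (without *Kdm3b*+/- mouse 2) to −0.06 (without *Kdm3b*+/- mouse 1), and it was −0.35 without WT mouse 2 and −0.07 without WT mouse 1.

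To set the most and a little-expressed cerebellin gene side by side, the 250 bases upstream of their annotated starts are shown, from RefSeq on GRCm38.p6, both from the reverse strand and written 5′ to 3′. A window was matched for *Cbln3*, *Cbln4* and *Nrxn3*. Capitals mark matches on either strand to any of 4 motifs. These were the E-box, spelled CANNTG, which is bound by basic helix-loop-helix factors. A core promoter element, the TATA box, was searched as TATAAA. The CCAAT box was searched by the letters of its name, and the GC box, bound by Sp1 and related factors, as GGGCGG. The window of *Cbln3* is chr14:55884257-55884506 and that of *Cbln4* is chr2:172043467-172043716.
Cbln3: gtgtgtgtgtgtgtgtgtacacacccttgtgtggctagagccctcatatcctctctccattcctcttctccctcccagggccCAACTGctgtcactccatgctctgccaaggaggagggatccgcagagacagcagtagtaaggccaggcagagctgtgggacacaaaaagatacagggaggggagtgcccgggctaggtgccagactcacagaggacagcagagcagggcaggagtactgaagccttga
Cbln4: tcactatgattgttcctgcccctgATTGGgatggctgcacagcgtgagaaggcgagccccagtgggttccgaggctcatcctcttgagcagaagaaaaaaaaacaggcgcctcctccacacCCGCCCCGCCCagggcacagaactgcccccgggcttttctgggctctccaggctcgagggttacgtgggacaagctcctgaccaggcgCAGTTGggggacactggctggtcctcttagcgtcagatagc
The window of *Cbln3* held 1 E-box, at position −168 from the start, and none of the other 3 motifs. The window of *Cbln4* held 1 E-box at position −41, 1 CCAAT box at position −226 and 2 GC boxes that overlap each other. Neither held a TATA box. Of 32841 windows of this length, 66.2% held an E-box, 12.4% a TATA box, 33.9% a CCAAT box and 32.7% a GC box. The windows were similar in GC content, with 57.6% for *Cbln3* and 60.8% for *Cbln4*, but *Cbln3* had 2 CG dinucleotides where *Cbln4* had 11 and the median window had 6.

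*Cbln2*, a cerebellin known mainly from other brain regions, was close to absent. It lies on chromosome 18, the chromosome of *Kdm3b*, from 86711110 to 86718283. WT mice had a TPM of 0.0714 and 0.0641, against 0.0598 and 0.141 for *Kdm3b*+/- mice. The unscaled coverage was 0.122 in 3 of the libraries, the same value in each, and 0.331 in *Kdm3b*+/- mouse 2. Without the minimum for testing its log2 fold change was 0.04 (limma, adjusted p = 0.855). At this depth a difference in *Cbln2* between the genotypes was not detectable.

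*Grid1* encodes the delta receptor GluD1, a postsynaptic receptor for cerebellins. It spans 760980 bases of chromosome 14, from 34820136 to 35581115 on the forward strand, on the same chromosome as *Cbln3*. The TPM was 0.656 and 0.729 in WT mice, against 0.460 and 0.742 in mutants. The *Kdm3b*+/- mice held both the lowest and the highest value, so the groups overlapped. It stayed below the minimum for testing, and without that minimum its log2 fold change was −0.09 (limma, adjusted p = 0.933).

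*Nrxn2* encodes a presynaptic neurexin and lies on the forward strand of chromosome 19 from 6418738 to 6533217. WT mice had a TPM of 15.3 and 17.7, against 20.1 and 20.8 for *Kdm3b*+/- mice. Both *Kdm3b*+/- mice lay above both WT mice. The mean was 16.5 ± 1.75 and 20.5 ± 0.492 (SD, n = 2 each), 1.24 times the WT level. The log2 fold change was 0.30 with a standard error of 0.15 (95% interval −0.05 to 0.65), an unadjusted p of 0.0842 and an adjusted p of 0.351 (limma). It was 0.20 without WT mouse 1, and 0.42 after correction for length and GC content.

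*Nrxn3* lies on the forward strand of chromosome 12 and spans 1540430 bases, from 88794504 to 90334933. The TPM was 89.0 and 104 in WT mice, against 88.1 and 93.4 in mutants, so the groups overlapped. The log2 fold change was −0.08 with a standard error of 0.14 (95% interval −0.40 to 0.23, limma adjusted p = 0.789).

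**Figure D3:**
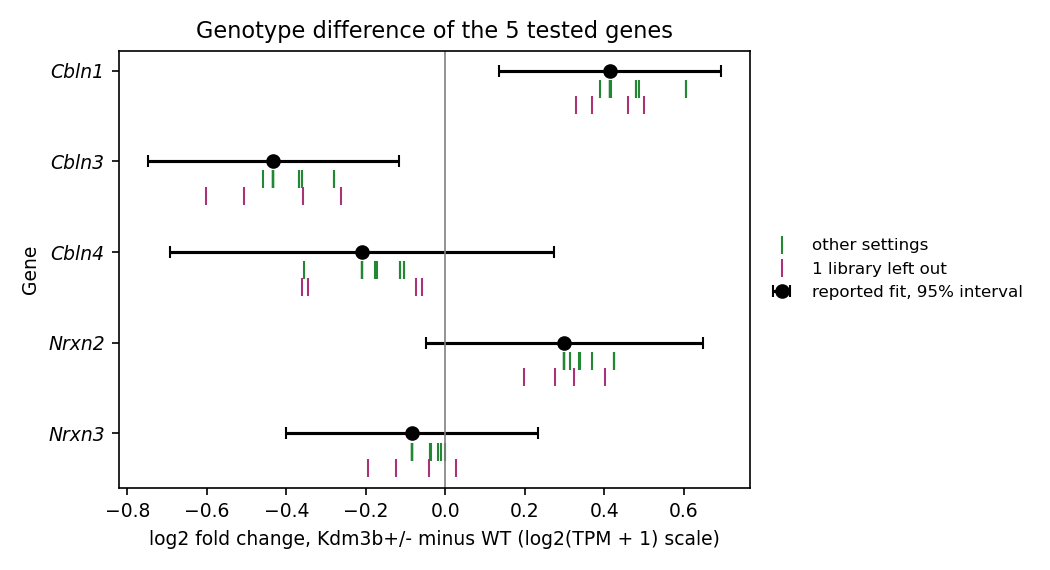
Log2 fold change (*Kdm3b*+/- minus WT, log2(TPM + 1) scale) of the 5 tested genes: black points with 95% intervals from limma, green ticks for other processing settings and purple ticks with 1 library left out. *Cbln1* stays above 0 (0.33 to 0.61) and *Cbln3* below 0 (−0.60 to −0.26) under every alternative, and *Nrxn3* crosses 0.

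The TPM of *Nrxn3* went against its coverage, the mean read depth over its exons. *Cbln1*, *Cbln3*, *Cbln4* and *Grid1* had the ratio of coverage to FPKM that 71.9% of the tested genes shared to within 0.5%, and *Nrxn2* had 0.944 of it. *Nrxn3* had 0.0137 of it, which is 72.8-fold less. Only 2 of the 13652 tested genes had a lower ratio than *Nrxn3*, and 131 genes (0.960%) were below 0.1. The coverage of *Nrxn3* was 2.72 and 3.50 in WT mice, against 3.29 and 3.90 in mutants, while that of *Nrxn2* was 31.9 and 41.5 against 50.3 and 60.1.

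By TPM, *Nrxn3* was therefore 4.37-fold to 5.86-fold above *Nrxn2*, and by coverage *Nrxn2* was 11.7-fold to 15.4-fold above *Nrxn3*. Per aligned gigabase, *Nrxn3* had a coverage between 0.553 and 0.610, inside the range of *Cbln4* (0.404 to 0.739). GENCODE lists 13 transcripts of *Nrxn3*, from 525 to 7922 bases long, and 18 of *Nrxn2*, from 547 to 6667 bases. In RefSeq the order is reversed, with 51 transcripts of *Nrxn3* and 4 of *Nrxn2*. StringTie adds the estimates of separate transcripts into the TPM of a gene. Which transcripts gave the TPM of *Nrxn3* was not tested, as the tables hold whole genes. The genotype difference was small on both scales, with a log2 fold change of −0.00069 on coverage per aligned gigabase (limma, adjusted p = 0.999).

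**Figure D4:**
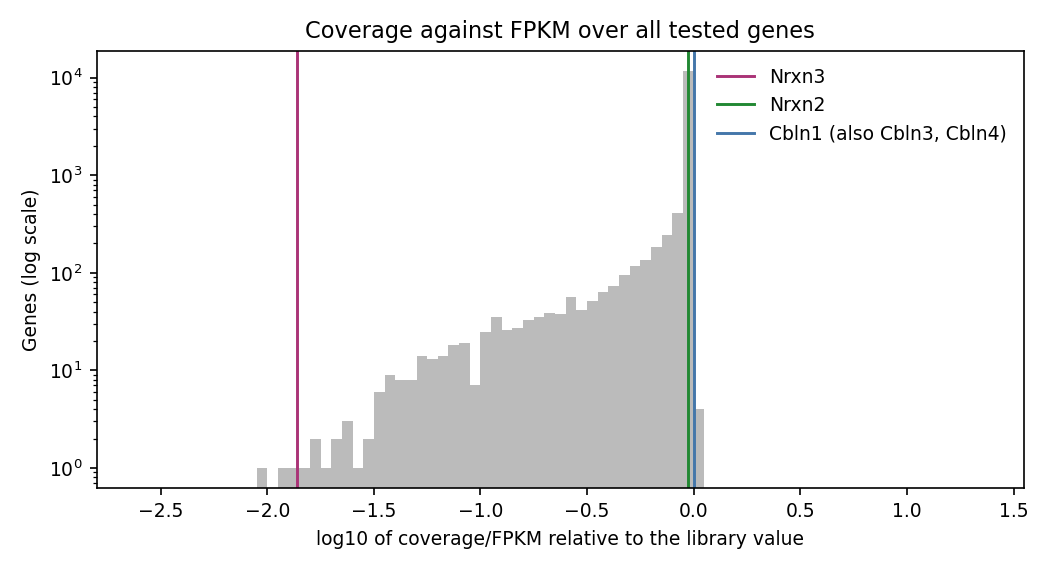
Number of tested genes (log scale) by the log10 of their ratio of coverage to FPKM, relative to the most frequent ratio of the library and taken as the median of 4 libraries. Vertical lines mark *Nrxn3*, *Nrxn2* and *Cbln1*; *Nrxn3*, at 0.0137 of the most frequent ratio, stands at the far left.

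Binding partners were taken from a list of 48 genes, of which 44 were tested. None was called (limma; 0.461% of all tested genes were), and 6 had an unadjusted p under 0.05, 1 higher and 5 lower in *Kdm3b*+/- mice, against 17.0% of all tested genes. The groups did not overlap for 18 of the 44, 5 higher and 13 lower, or 40.9% against 51.3% of all tested genes. The median log2 fold change was −0.05, and that of all tested genes −0.07. The list as a whole therefore lay near the background.

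Neurexin ligands made up 20 of the 44 tested partners, and 4 of the 6 genes with an unadjusted p under 0.05 were among them. Of all tested genes 17.0% had such a p. The groups did not overlap for 10 of the 20 (50%, against 51.3% of all tested genes), 2 higher and 8 lower. The ligands thus lay near the background as well. *Nxph3*, which encodes neurexophilin 3, a ligand of the long neurexins, reached a TPM of 7.53 and 8.30 in WT mice, against 3.42 and 4.53 in mutants. Its log2 fold change was −0.85 with a standard error of 0.18 (limma, adjusted p = 0.105). The calsyntenins *Clstn1* and *Clstn3*, which encode synaptic membrane proteins of the cadherin superfamily, had log2 fold changes of −0.55 and −0.46 (limma, adjusted p = 0.189 and 0.210). *Clstn1* reached a TPM of 292 and 396 in WT mice, against 209 and 258 in mutants. *Nlgn2*, which encodes a neuroligin of inhibitory synapses, was higher in both *Kdm3b*+/- mice, at 10.1 and 10.7 TPM against 7.38 and 7.47 in WT mice (log2 fold change 0.44, limma adjusted p = 0.231).

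Outside the neurexin ligands, *Apba2*, which encodes an adaptor protein of the Mint family, reached a TPM of 98.9 and 131 in WT mice, against 65.9 and 90.0 in mutants (log2 fold change −0.56, limma adjusted p = 0.215). *C1ql2*, a C1q-like ligand, had 1.76 and 1.90 against 0.951 and 1.04 (log2 fold change −0.50, limma adjusted p = 0.246). Its mean TPM of 1.41 was close to the minimum for testing. Of the other C1q-like ligands and their receptors none of those tested had groups without overlap. The 3 splicing factors of neurexin transcripts, *Khdrbs1*, *Khdrbs2* and *Khdrbs3*, had log2 fold changes between −0.03 and 0.22, and none had an unadjusted p under 0.05. *Ctsb*, a lysosomal protease linked to the release of CBLN1, reached a TPM of 658 and 717 in WT mice, against 654 and 626 in mutants, a log2 fold change of −0.10 (limma, adjusted p = 0.677).

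Receptors of *Cbln4* and partners of delta receptors inside the cell were also measured. *Neo1*, the gene of neogenin, reached a TPM of 9.40 and 11.1 in WT mice, against 3.60 and 10.8 in mutants, so *Kdm3b*+/- mouse 1 alone stood apart and the groups overlapped. *Dcc* was below the minimum for testing. Of the 8 intracellular partners of delta receptors 7 were tested, 3 had groups that did not overlap (42.9%, against 51.3% of all tested genes), 1 higher and 2 lower, and none had an unadjusted p under 0.05.

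**Figure D5:**
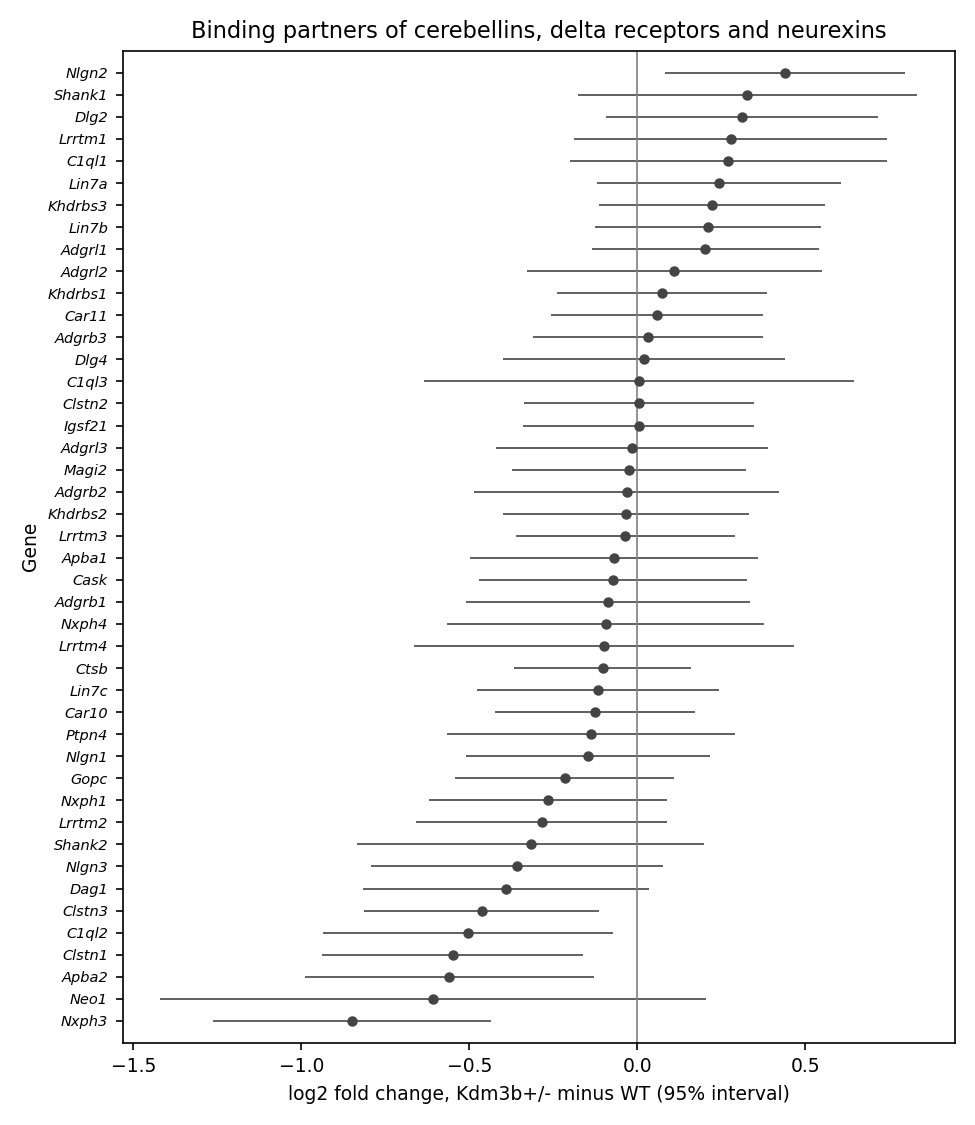
Log2 fold change (*Kdm3b*+/- minus WT, log2(TPM + 1) scale) with 95% intervals from limma for the 44 tested binding partners, ordered by value. Values run from −0.85 (*Nxph3*) to 0.44 (*Nlgn2*), and no gene was called.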

How the data were processed

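RNA was sequenced from granule-cell-enriched tissue of 2 WT and 2 *Kdm3b*+/- mice, and the samples were grouped by the genotype in their labels. After quality trimming, the authors used STAR for alignment and StringTie for abundance; versions, build and annotation are not given in the sources used here. The deposited coverage is a signal, the mean read depth over exons, without scaling to the library. The deposited FPKM values are per kilobase of transcript and per mapped fragments. The deposited TPM values are per transcript length with a total of 1000000 in a library, and keep no depth. Depth was therefore read as the most frequent ratio of coverage to FPKM, which is the number of gigabases aligned, and 70.9% to 71.4% of the entries above an FPKM of 1 had that ratio.

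Entries with the same NCBI identifier were summed, and symbols were matched for 24462 of 24532 identifiers with a RefSeq table of GRCm38.p6. Both ends of *Cbln1*, *Cbln3* and *Cbln4*, and 1 end of *Cbln2* and *Nrxn2*, matched that build exactly. Genotypes were compared on log2(TPM + 1) with limma version 3.58.1 (lmFit, eBayes with trend, genotype as the only term) in R version 4.3.3, for the 13652 genes whose mean TPM was 1 or more, with Benjamini-Hochberg adjustment over all of them. Calls needed a fold change beyond 1.2 at an adjusted p below 0.05. DESeq2, which the study used, was not run because TPM values are not counts. The fit was tested on simulated data before use.

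The genes described are the 7 members, *Kdm3b*, and the genes of a hand-written list of binding partners that were called or, failing that, had the lowest p-values; *Ctsb*, *Neo1*, *Dcc* and the *Khdrbs* genes were named outside this rule, after their values had been seen. The members and all lists were chosen with earlier results of these data known. FPKM and coverage per aligned gigabase in place of TPM, a pseudocount of 0.1, other filters and scalings, other variance priors, a replicate block, a loess correction (span 0.3) for the length and GC content of the longest GENCODE transcript, and each library left out in turn were tried. Coverage per aligned gigabase and the ratio of *Cbln3* to *Cbln1* were chosen after seeing the data. Robust fits used statmod version 1.5.0. Promoter windows were taken from a RefSeq table of GRCm38.p6. Python version 3.11.15 with pandas version 2.3.3 and Matplotlib version 3.10.9 made the tables and plots. Other genes of these families were not used here.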

Additional observations from a re-analysis of the deposited data

How the results depend on the processing

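*Cbln1*, *Cbln3*, *Cbln4* and *Nrxn2* kept their direction under every alternative. *Cbln3* was called with the replicate number as a block (log2 fold change −0.43, limma adjusted p = 0.0462), the 1 member called under any alternative; the block changed no other call among the members. Same-numbered mice share only a number: their deviations correlated at 0.121, and at 0.0206 after the length and GC correction. With that correction and the block *Cbln3* had −0.28 (adjusted p = 0.253). With each library left out in turn, where the lone mouse of a group is assumed to vary like the others, the log2 fold change was 0.33 to 0.50 for *Cbln1*, −0.60 to −0.26 for *Cbln3*, and −0.20 to 0.03 for *Nrxn3*, which turned to a positive 0.028 without WT mouse 2. Both members under the minimum also changed sign, *Grid1* from −0.09 to 0.04 without *Kdm3b*+/- mouse 1 and *Cbln2* from 0.04 to −0.01 without *Kdm3b*+/- mouse 2. The difference of *Cbln2*, under the minimum for testing, was 0.04 and became 0.23 with a pseudocount of 0.1. That of *Cbln4* was −0.36 with this pseudocount and −0.11 with FPKM, coverage or the length and GC correction.

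The number of genes called among all tested genes was 63. It was 38 with FPKM, 2 without the filter on low values, 37 with eBayes without trend, 600 with the replicate block, 38 with the length and GC correction and the block, 14 on coverage per aligned gigabase (chosen after seeing the data), and 21 to 188 with each library left out. Of the partners, 3 were called with the block (*Nxph3*, *Apba2* and *Clstn1*), and 0 to 2 with each library left out (*Nxph3* and *Neo1*, both without *Kdm3b*+/- mouse 2). Genes under the minimum TPM have no value under quantile normalization, the length and GC correction or the higher minimum. With 2 mice per group, and *Cbln2* and *Grid1* under a TPM of 1, small differences were not detectable.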
